A study of Mus musculus with 8 samples.

Results

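Brown adipose tissue (BAT) from tumour-bearing and control mice was examined for 10 genes of the activin and myostatin pathway, taken from a table of 56953 genes by matching the gene symbol. They are the ligand genes Mstn, Inhba and Inhbb, the antagonists Fst and Fstl3 and the related gene Fstl1. The others are the receptors Acvr1b, Acvr2a and Acvr2b, and the transcription factor Smad3. All 10 symbols were found. Bulk RNA-seq libraries came from 4 control (CTR) mice, which received PBS alone, and 4 mice with cancer-associated cachexia (CAC), which received 3000000 LLC cells under the skin of the right flank. LLC is a mouse lung carcinoma line that grows as a tumour and brings about weight loss. All mice were wild-type C57BL/6J, aged 8 to 10 weeks and either male or female, and were followed for 21 days. Animals without a tumour mass were left out of the study, and the labels do not give the sex of each mouse. The p-values below measure the spread between these 8 libraries, which the labels number as separate samples.

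Myostatin and the activins are secreted dimers of the TGF-β superfamily. They bind the type II receptors ACVR2A and ACVR2B, which recruit and phosphorylate a type I receptor such as ACVR1B, and this in turn phosphorylates SMAD2 and SMAD3. Follistatin and its relative FSTL3 trap the ligands outside the cell. Myostatin is best known as a brake on skeletal muscle growth and is made mainly by muscle fibres, whereas activin A is produced by many tissues and tumours and has been linked to muscle wasting.

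The libraries held 2454493 to 4827956 counts in CTR mice and 1823167 to 3392538 in CAC mice, which limits what can be seen of weakly expressed genes. Levels are given as CPM (counts scaled to the depth of the library), with the library size scaled by TMM. A count of 0 in 1 library allows a level of up to 3 counts, or 0.661 to 1.62 CPM depending on the library, and this limit covers counting error only. CPM takes no account of gene length, so levels of different members were not compared, and the leading genes of a marker list are those with the most counts.

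No difference between CAC and CTR mice was detected for any member. Fstl1, Acvr2b and Smad3 passed the filter on low counts and were tested, and the other 7 were too low. With edgeR's quasi-likelihood test and Benjamini-Hochberg adjustment, 0 of the 3 tested members had an adjusted p under 0.05, against 0.932% of the 9876 genes tested. None of the 3 had an unadjusted p under 0.05 (12.9% of all tested genes did), and DESeq2 called 0 as well. When the filter was left out, 9 members could be fitted and 0 of them reached an unadjusted p under 0.05. The CTR and CAC values overlapped for all 10 members, among which Mstn, at 0 in every library, could not do otherwise. For the 3 tested members, the share to compare is the 7.04% of tested genes whose groups did not overlap. In bulk tissue, fewer cells of a type and less RNA per cell cannot be told apart. Members that were not tested were compared by the difference in mean log2 CPM (prior count 2) with a two-sided exact permutation test, whose smallest possible p over 70 assignments of the libraries is 0.0286.

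**Figure D1:**
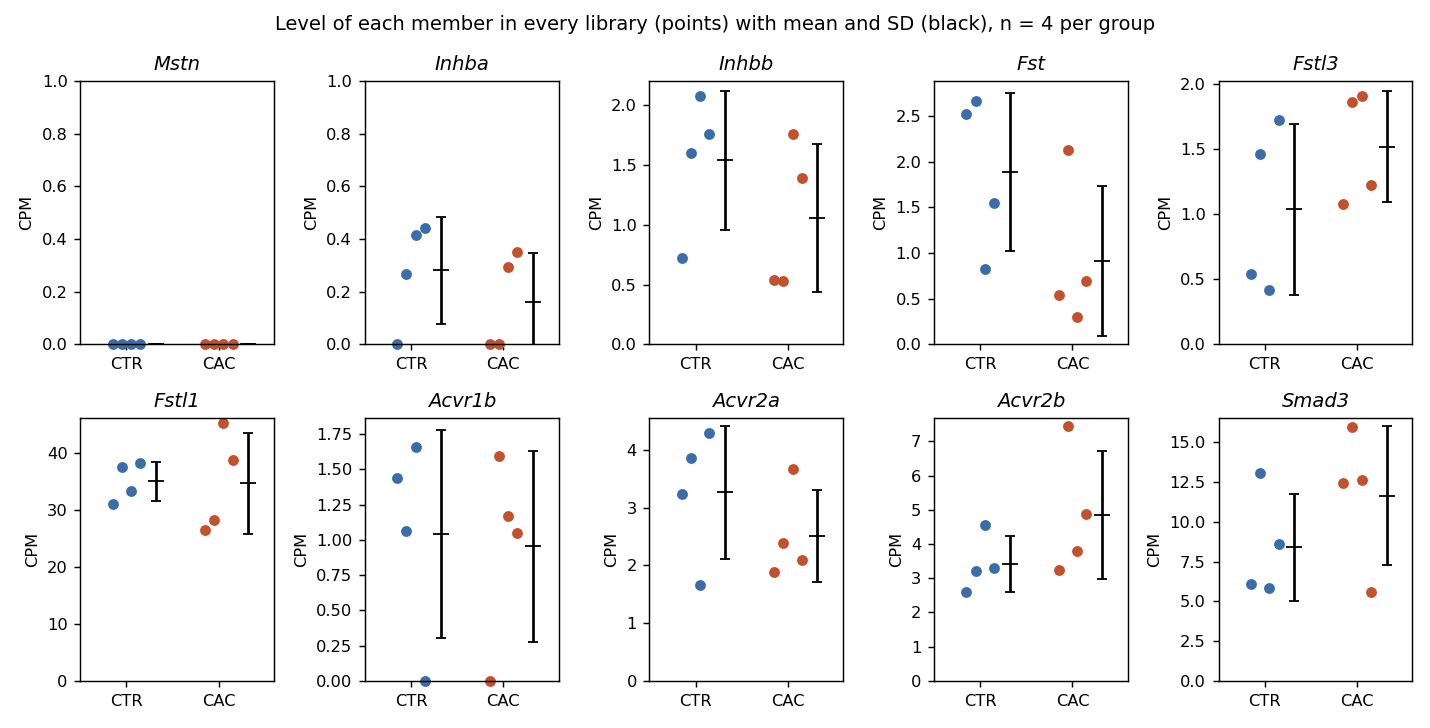
CPM of each of the 10 members in the 4 CTR (blue) and 4 CAC (orange) libraries, with a separate vertical axis for each gene and the group mean and SD in black (n = 4). The groups overlap in every panel, and Mstn lies at 0 throughout.

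Among the ligands, Mstn, which encodes myostatin, had 0 counts in each of the 8 libraries. Over all libraries together, with the library sizes scaled by TMM, 3 counts equal 0.128 CPM, which is the upper limit that 0 counts allow. The gene lies on chromosome 1 (GRCm38, chr1:53061640-53068079, plus strand). Skeletal muscle RNA was present in the same libraries. The summed level of 13 muscle markers was 1214 to 2967 CPM in CTR and 2646 to 4900 CPM in CAC libraries, with Acta1, Tnni2 and Myh4 taking the most counts. Mstn was therefore at 0 alongside muscle transcripts in both groups. The log2 fold change was positive for 11 of the 11 muscle markers tested, against 50.0% of all tested genes. By edgeR, 7 of the 11 had an unadjusted p under 0.05, against 12.9% of all tested genes. The groups did not overlap for Myh4, Actn3, Pvalb and Casq1, while 7.04% of all tested genes had no overlap. Only Actn3 passed the test (log2 fold change 1.63, SE 0.243, edgeR adjusted p = 0.0148).

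Inhba encodes the βA subunit of activin A (chr13:16011851-16031621, plus strand) and was barely detected, with 4 counts over the CTR libraries and 2 over the CAC libraries. The counts were 0, 1, 1 and 2 in CTR mice 1 to 4 and 0, 0, 1 and 1 in CAC mice 1 to 4. No library reached 3 counts, and 3 of the 8 were at 0. Inhbb encodes the βB subunit of activin B and lies at chr1:119415465-119422248 on the minus strand. It was seen in all 8 libraries, with counts of 2, 6, 5 and 8 in CTR and 1, 1, 6 and 4 in CAC mice. Its level was 1.54 ± 0.581 CPM in CTR and 1.06 ± 0.619 CPM in CAC libraries (SD, n = 4 each, difference in mean log2 CPM -0.38, exact permutation p = 0.2). CAC 1 and CAC 2 were below every CTR library, and CAC 3 and CAC 4 were within the CTR range.

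The sequences before the RefSeq start sites are shown for Mstn and Inhba, the members with the fewest counts, and for Fstl1, the member with the most. They were chosen after the values had been seen. Each is 250 bases long and comes from RefSeq (GRCm38.p6), 5′ to 3′ on the gene's strand, with the motif TATAAA in capitals where it occurs on that strand. The RefSeq start of Fstl1 lies inside the gene as GENCODE annotates it, so most of its stretch is within that gene model.
Mstn, chr1:53061390-53061639, plus strand: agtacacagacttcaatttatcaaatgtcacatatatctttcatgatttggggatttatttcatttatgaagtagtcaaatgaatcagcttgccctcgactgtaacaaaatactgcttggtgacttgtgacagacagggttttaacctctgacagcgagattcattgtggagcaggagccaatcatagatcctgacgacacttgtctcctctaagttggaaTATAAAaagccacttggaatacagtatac
Inhba, chr13:16011601-16011850, plus strand: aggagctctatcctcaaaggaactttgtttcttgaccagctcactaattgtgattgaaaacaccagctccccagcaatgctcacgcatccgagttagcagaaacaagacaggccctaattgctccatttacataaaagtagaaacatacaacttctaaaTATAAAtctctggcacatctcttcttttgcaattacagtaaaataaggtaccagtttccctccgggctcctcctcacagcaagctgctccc
Fstl1, chr16:37776805-37777054, plus strand: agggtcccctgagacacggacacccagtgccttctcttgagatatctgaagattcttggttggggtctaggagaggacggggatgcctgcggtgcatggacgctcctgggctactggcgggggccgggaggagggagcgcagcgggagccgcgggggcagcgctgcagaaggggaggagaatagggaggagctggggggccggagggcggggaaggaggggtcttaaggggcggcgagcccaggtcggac
The Mstn and Inhba sequences held 3 CG pairs each, and TATAAA began 29 bases before the Mstn start and 91 bases before the Inhba start. The Fstl1 sequence held 16 CG pairs and no TATAAA. Of 32851 mouse promoters of the same length, 7.59% held TATAAA on the gene's strand, 37.8% held at most 3 CG pairs and 25.4% at least 16. Sequences were found for 9 of the 10 members, all but Fst, and the 7 other than Mstn and Inhba held 16 to 49 CG pairs. The SMAD box CAGAC was present on either strand in 4 of the 9 (Mstn, Acvr2a, Acvr2b and Fstl3), and in 42.2% of all promoters. A match of letters does not show that a factor binds there.

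Of the follistatin family genes, Fst had the lowest p without the filter of all members. Fst encodes follistatin, which binds activins nearly irreversibly and also binds myostatin (chr13:114452290-114458951, minus strand). Its counts were 7, 10, 2 and 7 in CTR and 1, 4, 1 and 2 in CAC mice. CAC 1, CAC 3 and CAC 4 were below every CTR library, whereas CAC 2 at 2.13 CPM was within the CTR range of 0.83 to 2.66 CPM. The level was 1.89 ± 0.864 CPM in CTR and 0.914 ± 0.825 CPM in CAC libraries (SD, n = 4 each), a difference in mean log2 CPM of -0.74 (exact permutation p = 0.143). Fitted by edgeR without the filter, its log2 fold change was -1.22 (SE 0.635, 95% interval -2.47 to 0.02, unadjusted p = 0.0546, adjusted p = 0.528 over the 23730 genes fitted). Pooled over mice there were 26 CTR and 8 CAC counts, a ratio of levels of 0.414 with a 95% interval of 0.162 to 0.942 that covers counting error only and leaves out the spread between mice. Fst shares exonic bases with Gm47040 on the opposite strand. Whether strand was used in counting is not given in the sources used here.

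Fstl3, a follistatin-like inhibitor of activin and myostatin (chr10:79777272-79782630, plus strand), averaged 1.04 ± 0.656 CPM over CTR libraries and 1.52 ± 0.427 CPM over CAC libraries (SD, n = 4 each). Its difference in mean log2 CPM was 0.42 (exact permutation p = 0.286). The lowest values were those of CTR 1 and CTR 3, and the remaining 6 libraries lay between 1.08 and 1.91 CPM. Fstl3 shares exonic bases with Prss57 on the opposite strand, and 6 of its 8 counts were not whole numbers, so the split of reads between genes is uncertain.

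Fstl1 encodes a secreted glycoprotein of the follistatin family that fibroblasts and other mesenchymal cells make, and gave the most precise comparison (chr16:37776873-37836514, plus strand). Its counts were 86, 141, 80 and 173 in CTR and 49, 53, 154 and 111 in CAC mice. The level was 35.0 ± 3.47 CPM in CTR and 34.6 ± 8.85 CPM in CAC libraries (SD, n = 4 each). CAC 1 and CAC 2 were below all CTR libraries and CAC 3 and CAC 4 were above them, so the CAC values enclosed the CTR values. The log2 fold change was 0.01 (SE 0.156, edgeR adjusted p = 0.987), and its 95% interval of -0.31 to 0.34 corresponds to 0.804- to 1.26-fold. The summed level of 9 progenitor and fibroblast markers, led by Dpt, Cd34 and Col6a3, was 124 to 137 CPM in CTR and 104 to 156 CPM in CAC libraries (two-sided exact permutation p = 0.6), but its members went both ways. Cd34 was at a log2 fold change of 0.69 without overlap of the groups (edgeR adjusted p = 0.0623) and Col6a3 at -0.52 (adjusted p = 0.246). The genes whose log2 CPM followed Fstl1 most closely over the 8 libraries, after the group means were taken off, were Mcm7 (Pearson r = 0.99), Herc3 (r = 0.971) and Zw10 (r = 0.962). These were the highest values among all tested genes, the libraries share depth and scaling, and the mean levels of these genes were only 3.79 to 6.09 CPM.

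The type I receptor gene Acvr1b, which encodes ALK4 (chr15:101174067-101213684, plus strand), had counts of 4, 4, 4 and 0 in CTR and 0, 3, 4 and 3 in CAC mice. One library of each group was at 0, and the levels were 1.04 ± 0.736 CPM in CTR and 0.953 ± 0.678 CPM in CAC libraries (SD, n = 4 each, exact permutation p = 0.83). The type II receptor gene Acvr2a (chr2:48814109-48903269, plus strand) averaged 3.27 ± 1.16 CPM over CTR libraries and 2.51 ± 0.796 CPM over CAC libraries. Its difference in mean log2 CPM was -0.28 (n = 4 each, exact permutation p = 0.4). It shares exonic bases with Orc4 on the opposite strand, and 5 of its 8 counts were not whole numbers.

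Acvr2b, the other type II receptor gene, lies at chr9:119402118-119434995 on the plus strand. Its levels were 2.61, 3.20, 4.57 and 3.31 CPM in CTR and 3.24, 7.45, 3.81 and 4.88 CPM in CAC mice. CAC 2 and CAC 4 were above every CTR library, and CAC 1 and CAC 3 were within the CTR range. The log2 fold change was 0.49 (SE 0.333, 95% interval -0.20 to 1.19, edgeR adjusted p = 0.568), which leaves room for a level from 0.872 to 2.27 times that of CTR mice.

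Smad3, the transcription factor that carries the signal to the nucleus (chr9:63646767-63757994, minus strand), had 6.12, 13.1, 5.81 and 8.60 CPM in CTR and 12.4, 15.9, 12.6 and 5.58 CPM in CAC mice. CAC 4 had the lowest and CAC 2 the highest value of all 8 libraries. The log2 fold change was 0.39 (SE 0.303, 95% interval -0.25 to 1.03, edgeR adjusted p = 0.639), an interval from 0.842- to 2.04-fold. A log2 fold change of 1 lies within the intervals of Smad3 and Acvr2b and outside that of Fstl1.

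**Figure D2:**
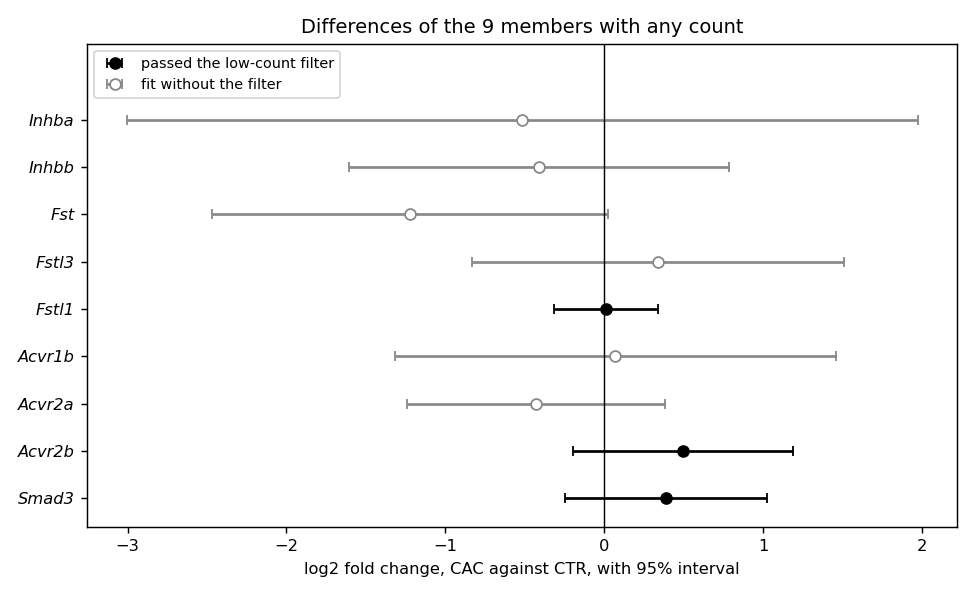
Log2 fold change of CAC against CTR with its 95% interval for the 9 members that had any count, from edgeR. Filled points are the 3 members that passed the filter on low counts, open points are from the fit without it, and every interval includes 0, that of Fst reaching from -2.47 to 0.02.

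The pathway around the members was described by 8 lists with 115 genes, of which 59 were tested. Of these, 32 had a positive and 27 a negative log2 fold change, with a median of 0.05 against -4.67e-05 over all tested genes. The adjusted p was under 0.05 for 1 of the 59 (1.69%, against 0.932% of all tested genes), and 8 had an unadjusted p under 0.05 (13.6%, against 12.9%). The groups did not overlap for 4 (6.78%, against 7.04%), namely Cdkn1a, Ltbp4, Foxo1 and Bnip3. These shares were close to those of all genes.

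Most of the other ligands were too low to test at this depth. Of 12 activin, nodal and GDF ligand and inhibin genes, Inha, Inhbe, Nodal, Lefty2, Gdf15 and Gdf2 had 0 counts in every library and only Gdf1 was tested (12.1 ± 0.95 CPM in CTR and 11.5 ± 1.05 CPM in CAC libraries, SD, n = 4 each, log2 fold change -0.06, edgeR adjusted p = 0.935). Gdf15, a stress hormone linked to loss of appetite, was thus not detected at this depth in BAT of either group. For Gdf1, 5 of the 8 counts were not whole numbers, so the split of reads between genes is uncertain. Of 7 other receptors and co-receptors, 2 were tested and Tdgf1 and Cfc1 were at 0. Acvr1c, which encodes the type I receptor ALK7 of adipose tissue, averaged 48.4 ± 2.93 CPM over CTR libraries and 43.9 ± 3.53 CPM over CAC libraries (SD, n = 4 each). Its log2 fold change was -0.13 (SE 0.117, 95% interval -0.37 to 0.12, edgeR adjusted p = 0.705). Tgfbr3, which encodes betaglycan, the co-receptor of inhibin, differed by 0.14 on the log2 scale (edgeR adjusted p = 0.816).

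Of 10 other secreted antagonists, 2 were tested and Fstl5, Spock1 and Cer1 were at 0. Dcn encodes the matrix proteoglycan decorin, which binds myostatin and TGF-β, and had a log2 fold change of 0.22 (95% interval -0.04 to 0.48, edgeR adjusted p = 0.48). Ltbp3, a binding protein of latent ligands, had one of -0.19 (edgeR adjusted p = 0.606).

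Inside the cell, 16 of 20 SMAD proteins and partners were tested and 0 passed, 11 having a positive and 5 a negative log2 fold change with a median of 0.06, and 0 had an unadjusted p under 0.05. Foxh1, a SMAD partner of embryonic cells, was at 0. The smallest p-values belonged to Smurf1, a ubiquitin ligase of the pathway (log2 fold change -0.37, edgeR adjusted p = 0.553), Pmepa1, a feedback inhibitor (0.35, adjusted p = 0.569), and Trim33, a SMAD4 regulator (-0.34, adjusted p = 0.573).

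Of 16 genes known to be induced through SMAD3, 11 were tested and 0 passed, with 4 positive and 7 negative log2 fold changes and a median of -0.14, and 1 had an unadjusted p under 0.05. That gene was Cdkn1a, the cell cycle inhibitor p21, with a mean of 47.6 ± 3.48 CPM over the CTR libraries and 69.8 ± 17.5 CPM over the CAC libraries (SD, n = 4 each). Its groups did not overlap (log2 fold change 0.54, SE 0.145, edgeR adjusted p = 0.0829). The collagen gene Col3a1 had a log2 fold change of -0.59 (SE 0.275, edgeR adjusted p = 0.423), and Pmepa1, also on this list, is given above.

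In the TGF-β arm 8 of 15 genes were tested and 0 passed, with 1 higher and 1 lower at an unadjusted p under 0.05. Ltbp4, a latent TGF-β binding protein, ran from 15.1 to 18.7 CPM in CTR and from 9.57 to 13.9 CPM in CAC libraries without overlap (log2 fold change -0.55, SE 0.182, edgeR adjusted p = 0.171). Lrrc32, which holds latent TGF-β at the cell surface, had a log2 fold change of 0.82 (SE 0.359, edgeR adjusted p = 0.334). In the BMP arm, the related branch that signals through SMAD1, SMAD5 and SMAD9, 13 of 30 genes were tested and 0 passed, again with 1 higher and 1 lower at an unadjusted p under 0.05. Id2, a target gene of BMP signalling, averaged 86.7 ± 21.1 CPM over CTR libraries and 55.2 ± 13.2 CPM over CAC libraries (SD, n = 4 each, log2 fold change -0.66, SE 0.182, edgeR adjusted p = 0.112). The ligand gene Bmp4 had a log2 fold change of 0.87 (SE 0.35, edgeR adjusted p = 0.28) and the receptor gene Bmpr1a one of 0.50 (SE 0.249, adjusted p = 0.402). Gdf6 and Grem1 were at 0.

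Genes of muscle atrophy, several of which are induced by FOXO factors downstream of myostatin in muscle, were the list with the only call. Of 12 genes, 10 were tested, 6 with a positive and 4 with a negative log2 fold change and a median of 0.24, and 3 had an unadjusted p under 0.05, all higher in CAC. Bnip3, which encodes a mitochondrial protein of hypoxia and mitophagy, rose, with 95.4 ± 9.45 CPM for CTR mice and 136 ± 20.8 CPM for CAC mice (SD, n = 4 each, log2 fold change 0.52, SE 0.12, edgeR adjusted p = 0.0398). This call was lost with upper quartile scaling (adjusted p = 0.0539), with limma-trend (0.0505) and when CTR 1 (0.112), CTR 2 (0.147), CTR 4 (0.0602), CAC 3 (0.106) or CAC 4 (0.133) was left out, and none of its 8 counts was a whole number. Foxo1, a transcription factor of fasting, had a log2 fold change of 0.43 without overlap of the groups (SE 0.127, edgeR adjusted p = 0.112). Fbxo32, the muscle ubiquitin ligase atrogin-1, had one of 0.65 (SE 0.214, adjusted p = 0.168). The summed muscle markers given with Mstn were also higher on average in CAC, without passing the test (exact permutation p = 0.0571), and their part in these values was not tested.

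**Figure D3:**
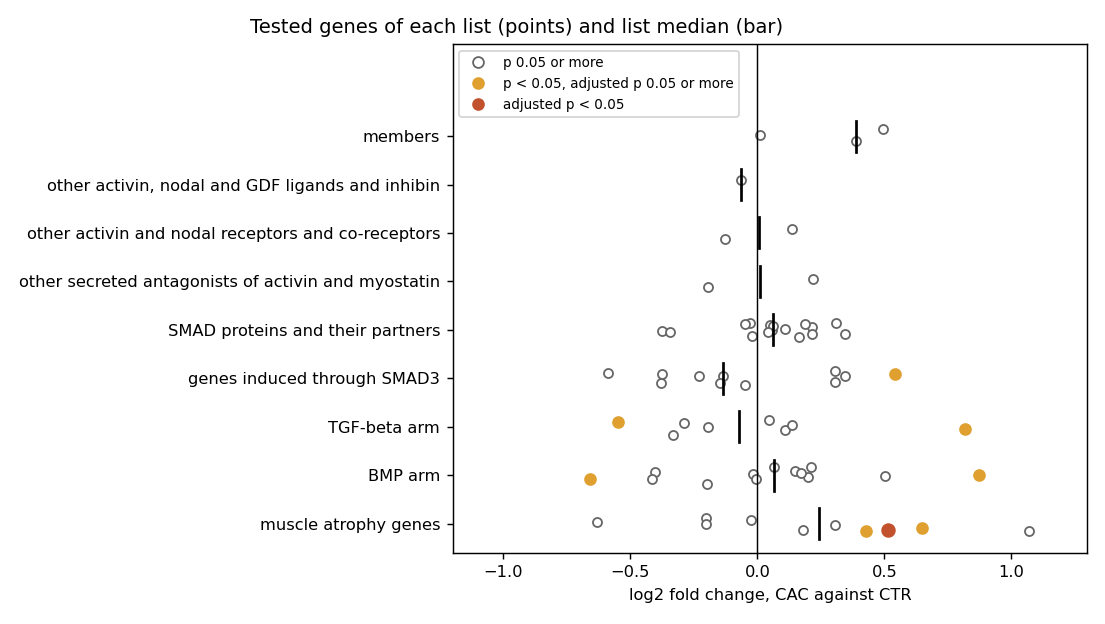
Log2 fold change of CAC against CTR for each tested gene of the members and of the 8 pathway lists, with 1 point per gene and a black bar at the median of each list. Only Bnip3 (red) had an adjusted p under 0.05, and the medians lie between -0.14 and 0.39.

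Marker genes showed what else the libraries held. The summed level of 11 brown adipocyte markers was 17130 to 19110 CPM in CTR and 16530 to 18950 CPM in CAC libraries (two-sided exact permutation p = 0.971), with Cidea, Ucp1 and Fabp4 taking the most counts, so markers of the labelled tissue were high in all 8 libraries. The sum covers members that went both ways. Ppargc1a, a coactivator of mitochondrial biogenesis, rose (log2 fold change 0.73, edgeR adjusted p = 0.0201), while Cox7a1 (-0.22, adjusted p = 0.292), Cox8b (-0.22, adjusted p = 0.286) and Plin1 (-0.27, adjusted p = 0.192) had lower CAC values without overlap and did not pass. Neutrophil markers, led by S100a8, S100a9 and Retnlg, ran from 6.12 to 6.64 CPM over CTR libraries and from 164 to 429 CPM over CAC libraries, and macrophage markers, led by Csf1r, C1qa and Mrc1, from 103 to 134 and from 154 to 212 CPM (exact permutation p = 0.0286 for each, the smallest this test can give, so that the adjusted p over 11 marker lists is 0.157). Gene by gene, the 3 tested neutrophil markers all rose by edgeR, S100a8 (log2 fold change 5.57, adjusted p = 0.00515), S100a9 (5.45, adjusted p = 0.000182) and Retnlg (3.40, adjusted p = 0.0155). S100a8 and S100a9 made up most of the sum (means of 175 and 73.5 CPM in CAC libraries), and other cells than neutrophils can express both. The paper counted immune cells and neutrophils in BAT and reports no significant difference between the groups. It proposes that brown adipocytes release most of the secreted S100A9 in CAC mice. By immunostaining it found more S100A9 in brown adipocytes of CAC mice, and no change in endothelial cells, fibroblasts or neutrophils. It also found S100A9 in mature cultured brown adipocytes, and more in their medium after exposure to LLC cells. S100A8 protein released by BAT was reported as minimal and not different between groups. The values given here are RNA of whole tissue. Of the 5 markers too low to test, Cxcr2 was at 0 in every CTR library and at 1.08 to 2.66 CPM in CAC libraries. Ngp was at most 0.415 CPM in CTR and 1.62 to 2.64 CPM in CAC libraries. Over all libraries Cxcr2 had 18.5 and Ngp 25 counts, and 3 counts equal 0.879 to 1.62 CPM in CAC libraries. Both were picked after their values were seen, and how often genes this low separate the groups was not counted. The rest of the 5 overlapped between the groups. All 5 tested macrophage markers had a positive log2 fold change, against 50.0% of all tested genes. By edgeR, 3 of the 5 had an unadjusted p under 0.05, against 12.9% of all tested genes. Only C1qa passed (0.83, edgeR adjusted p = 0.00103). Csf1r also had higher CAC values without overlap and did not pass (0.48, edgeR adjusted p = 0.0778). Erythrocyte markers, led by Hba-a1, Hba-a2 and Hbb-bs, ranged from 6179 to 19270 CPM in CTR and from 14640 to 44330 CPM in CAC libraries, and like the muscle markers they gave an exact permutation p of 0.0571 (adjusted p = 0.157). Of 6 tested erythrocyte markers 1 rose, Slc4a1 (3.88, edgeR adjusted p = 0.00343). The marker lists not yet given overlapped between the groups in their summed level, with exact permutation p from 0.286 to 0.771. These were white adipocytes (led by Retn, Npr3 and Nnat), endothelial cells (Kdr, Pecam1 and Tie1) and smooth muscle and pericytes (Rgs5, Acta2 and Cspg4). Nerve and Schwann cells and mesothelium (Lrrn4 and Krt19) were the others. In the smooth muscle and pericyte list, 2 members went opposite ways without overlap and did not pass. They were Tagln (log2 fold change 0.45, edgeR adjusted p = 0.511) and Pdgfrb (-0.67, adjusted p = 0.286). Wt1, Tcf21, Msln and Upk3b were at 0 in every library. The part of these cell types in the values of the members was not tested.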

How the data were processed

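BAT of 4 CTR and 4 CAC mice was sequenced single-end, with 1 library per mouse made from total RNA by a commercial Digital mRNA-seq service (NEGEDIA). Per the labels and the study's methods, the authors checked reads with FastQC 0.11.9, aligned them to mm10 with HISAT2 2.2.1 and counted them with featureCounts, allowing multi-mapping reads. The deposited table holds expected counts per gene, of which 25.1% to 28.4% of the values above 0 are not whole, and a further deposited table holds a normalized signal that the authors made with DESeq2.

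After rounding, the counts were fitted in R 4.3.3 by edgeR 4.0.16 (filterByExpr, TMM, robust quasi-likelihood test, no covariate, Benjamini-Hochberg adjustment, threshold 0.05), after the procedure had been tested on simulated data. The depth per library, 1823167 to 4827956 counts, sets the precision. Alternatives were DESeq2 1.42.0, other scalings and filters, decimals dropped, a replicate block, limma-trend 3.58.1 on log2 of the normalized signal plus 1, and leaving out each library. Coordinates are those of GRCm38 in GENCODE M21, matched by gene ID without version. The members and gene lists were chosen with earlier results of these data known. The text names all members, in each pathway list the called genes and the 3 with the smallest p, the 3 genes most like a member of at least 20 CPM, and in each marker list the genes at 0 and the 3 with the highest mean CPM, except in the nerve and Schwann cell list, whose genes are not reported here. The pathway genes at 0 and Actn3, Pvalb, Casq1, Slc4a1, Cxcr2, Ngp, Ppargc1a, Cox7a1, Cox8b, Plin1, Tagln and Pdgfrb were singled out after their values were seen. Sequences before start sites are from RefSeq.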

Additional observations from a re-analysis of the deposited data

Results flagged for a closer look

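Of 76 groups of 4 libraries examined for a single library far from the rest, 2 were flagged, where chance alone flags about 1 in 20, or 3.8. Both are marker lists, and none is a member. The summed level of the brown adipocyte markers was 19110 CPM in CTR 4 and 17130 to 17320 CPM in the other CTR libraries. The summed level of the nerve and Schwann cell markers was 393.5 CPM in CAC 1 and 235.0 to 251.4 CPM in the other CAC libraries.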

How the results depend on the processing

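No setting gave a call for any member, and Smad3, Acvr2b, Fst, Fstl3, Acvr2a, Inhba and Inhbb kept the sign of their difference in every setting that gave a value (Acvr2b was lost with at least 10 counts in every library). Their size moved when 1 library was left out, from 0.221 (without CAC 2) to 0.68 (without CTR 2) for Smad3, 0.268 (without CAC 2) to 0.626 for Acvr2b, -1.05 to -0.545 for Fst, 0.23 (without CTR 3) to 0.608 for Fstl3, -0.513 (without CTR 3) to -0.15 (without CTR 4) for Acvr2a, -0.349 (without CTR 1) to -0.0998 (without CAC 1) for Inhba and -0.587 (without CTR 1) to -0.231 (without CAC 2) for Inhbb. The log2 fold change of Fstl1, near 0, changed sign with upper quartile scaling (-0.0104), without the filter (-0.0137), with the replicate block (-0.0207) and with limma-trend (-0.0413), and ran from -0.155 to 0.117 when 1 library was left out. The difference of Acvr1b was 0.0694 without the filter and ran from -0.461 to 0.315 when 1 library was left out. Over all genes, 92 were called, 351 of 23730 without the filter and 42 (without CTR 1) to 135 when 1 library was left out, with 60 without CAC 3. Of the pathway genes, 1 was called, 2 with DESeq2, 3 without the filter, 0 with upper quartile scaling, 0 with limma-trend, and 0 (without CTR 1, CTR 2 or CAC 4) to 2 (without CAC 1) when 1 library was left out. Id2 passed with DESeq2 (adjusted p = 0.0489), without the filter (4.16e-05), with the block (0.0415), without CTR 4 (0.0407) and without CAC 1 (0.0175), Cdkn1a without the filter (0.0108) and Col3a1 without CAC 3 (0.0356). Leaving out 1 library also moved the log2 fold changes of some named pathway genes. That of Bmp4 ran from 0.496 (without CAC 2) to 1.08 and that of Ltbp3 from -0.297 to -0.0561 (without CAC 4). For Pmepa1 the range was 0.201 (without CTR 1) to 0.495 and for Smurf1 -0.53 to -0.234 (without CTR 1). For Dcn it was 0.132 (without CAC 3) to 0.333 and for Tgfbr3 0.0631 to 0.281 (without CTR 2). The cause of these shifts was not tested. Replicate numbers are shared by the groups. Correlations between the deviations of same-numbered libraries were between -0.0218 and 0.0351. Of the 8 libraries, 4 were closest to their own number, a count that was not set against chance. The replicate block gave 140 called genes, against 92 without it, and 2 of the 140 were in the pathway lists. For 6 of the 10 members at most 34 counts were found in all 8 libraries together, so only large differences could have been seen.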
